A study of Mus musculus with 12 samples.

Results

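The genes described are 10 members of the epidermal growth factor receptor (EGFR) circuit: the ligands Hbegf, Areg, Ereg, Tgfa and Btc, the receptor gene Egfr, and the feedback genes Spry2, Spry4, Dusp4 and Dusp6. They are 10 of the 45777 genes in the count table, and all 10 were among the 17885 genes tested after low counts were filtered out. The set was chosen because Hbegf, Areg and Spry4 were lower in tumours with MAVS, so every MAVS difference of these genes below is a description, given without a test. The tumours were subcutaneous grafts of 393P, a mouse lung cancer line, in male 129S2/SvPasCrl mice aged 8 weeks. The injected cells were either knockout for MAVS, the mitochondrial adaptor downstream of the cytosolic RNA sensors, or MAVS-reconstituted. The mice were given either BAY-1217389, which blocks MPS1, a kinase of the mitotic checkpoint, at 5 mg/kg 2 times a day for 2 days, or the control treatment, and tumours were collected on the following day. The 4 groups of 3 libraries were thus MAVS-reconstituted tumours with inhibitor, MAVS-reconstituted control tumours, MAVS-knockout tumours with inhibitor and MAVS-knockout control tumours. The question stated for the study was which responses to a pulse of MPS1 inhibition require MAVS.

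EGFR ligands are made as precursors in the cell membrane, released by metalloproteases of the ADAM family, and bind the receptor on the same or on neighbouring cells. The active receptor signals through RAS, RAF and MEK to the kinase ERK, and many carcinomas of the lung depend on this route. ERK in turn induces genes that restrain it: Sprouty proteins act upstream in the pathway, and the dual-specificity phosphatases DUSP4 and DUSP6 remove phosphates from ERK itself.

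Genotype went with the injected cell population, so MAVS and any other difference between the populations cannot be told apart. The sample titles call the knockout group Luc, a name not explained in the sources used here, and the labels do not say that each library came from its own animal. The p-values therefore measure the spread between these libraries, which may be technical. Library totals ran from 52983715 to 69108411 counts. Mavs itself was measured at 50.1 to 62.8 CPM (each count as a share of its TMM-scaled library total) in reconstituted tumours with inhibitor and 59.1 to 85.1 CPM in reconstituted controls. It was at 39.4 to 43.5 CPM in knockout tumours with inhibitor and 40.5 to 45.7 CPM in knockout controls, so Mavs transcript counts remained in knockout tumours. Fewer cells of a type and less RNA per cell cannot be told apart in these whole tumours.

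Areg, Ereg and Btc are neighbours on mouse chromosome 5 (GRCm38). Ereg (gene ID 13874) spans chr5:91074617-91093649, Areg (gene ID 11839) spans chr5:91139599-91148432 and Btc (gene ID 12223) spans chr5:91357261-91402994. Tgfa (gene ID 21802) lies at chr6:86195038-86275744, Dusp4 (gene ID 319520) at chr8:34807610-34819894 and Dusp6 (gene ID 67603) at chr10:99263231-99267489. Egfr (gene ID 13649) lies at chr11:16752203-16913907 and Spry2 (gene ID 24064) at chr14:105891947-105896819. The gene IDs of Hbegf and Spry4 are 15200 and 24066. The RefSeq promoter table matched 6 of the 10 genes (Areg, Btc, Tgfa, Egfr, Spry2 and Dusp6). The 250 bases before the annotated start of Areg, the ligand with the widest MAVS difference among these 6, and of Egfr, its receptor, are shown to compare their core promoters (RefSeq, GRCm38.p6, plus strand). The Areg window is chr5:91139349-91139598 and the Egfr window is chr11:16751953-16752202.

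Areg: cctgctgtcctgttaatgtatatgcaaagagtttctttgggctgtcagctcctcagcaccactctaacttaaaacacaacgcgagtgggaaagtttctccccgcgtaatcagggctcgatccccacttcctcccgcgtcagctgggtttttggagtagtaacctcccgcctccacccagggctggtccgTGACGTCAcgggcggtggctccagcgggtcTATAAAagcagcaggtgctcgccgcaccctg
Egfr: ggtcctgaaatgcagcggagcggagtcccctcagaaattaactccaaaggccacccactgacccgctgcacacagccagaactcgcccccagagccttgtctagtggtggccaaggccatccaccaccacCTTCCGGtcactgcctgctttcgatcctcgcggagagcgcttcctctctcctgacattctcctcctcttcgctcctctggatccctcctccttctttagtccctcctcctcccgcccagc

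Capitals mark matches to motifs searched on both strands in 300 bases (250 before and 50 after the start): the cyclic AMP response element TGACGTCA, the AP-1 element TGANTCA, the ETS element CCGGAAG and the TATA element TATAAA. The Areg window held TGACGTCA, a palindrome, with its first base 61 bases before the start, and TATAAA 31 bases before it. TGACGTCA was present in 1.79% of all 32851 promoters in the table and TATAAA in 13.6%. The Egfr window held the ETS letters on the minus strand, 120 bases before the start, and these occurred in 8.86% of all promoters. None of the 4 motifs was found in the windows of Btc, Tgfa, Spry2 and Dusp6, and TGANTCA, found in 7.81% of all promoters, was in none of the 6. A match is a match of letters, not a site shown to be used.

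Per kilobase of exon, Dusp6 and Hbegf were the most abundant transcripts of the circuit, and Egfr and Btc the least. In reconstituted tumours with inhibitor the order was Dusp6 (44.7 ± 4.32 CPM per kb, SD, n = 3), Hbegf (13.9 ± 3.74), Dusp4 (11.8 ± 3.52), Areg (8.94 ± 2.00), Tgfa (6.94 ± 0.631), Spry2 (5.80 ± 0.696), Ereg (3.82 ± 0.130), Spry4 (1.40 ± 0.460), Egfr (0.920 ± 0.292) and Btc (0.438 ± 0.120). There the ranges of Hbegf and Dusp4, Dusp4 and Areg, Areg and Tgfa, Tgfa and Spry2, and Spry4 and Egfr overlapped, so those neighbours did not differ beyond their spread. In knockout controls the order was Dusp6 (57.6 ± 11.03 CPM per kb, SD, n = 3), Hbegf (42.0 ± 5.06), Dusp4 (20.5 ± 2.58), Areg (17.9 ± 3.39), Spry2 (10.2 ± 1.37), Ereg (8.10 ± 1.44), Tgfa (7.95 ± 0.434), Spry4 (3.27 ± 0.486), Egfr (1.58 ± 0.380) and Btc (0.452 ± 0.170). In that group the ranges of Dusp4 and Areg, Spry2 and Ereg, and Ereg and Tgfa overlapped. Tgfa thus ranked above Spry2 and Ereg in the first group and below both in the second, with no overlap between Tgfa and Ereg in the first group and between Tgfa and Spry2 in the second.

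**Figure D1:**
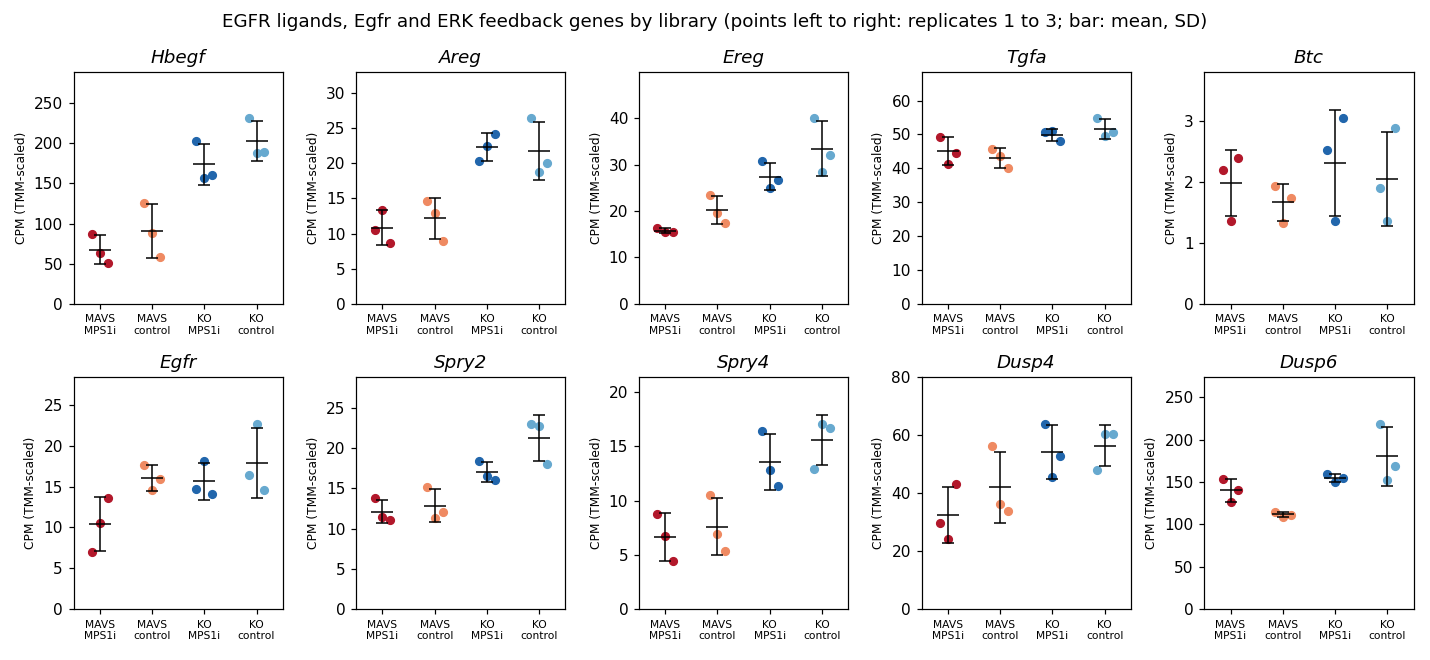
Level of each of the 10 genes in each library in CPM, scaled with TMM factors, on an axis from 0. Points are replicates 1 to 3 from left to right in MAVS-reconstituted (MAVS) and MAVS-knockout (KO) tumours with the inhibitor (MPS1i) or control treatment, and bars give the mean and SD of 3 libraries. Hbegf ran from 51.2 to 126 CPM in the 6 reconstituted libraries, all below the 157 to 231 CPM of the 6 knockout libraries.

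Hbegf encodes heparin-binding EGF-like growth factor, a ligand with strong affinity for heparan sulphate. It had 86.8, 63.5 and 51.2 CPM in reconstituted tumours with inhibitor, against 203, 157 and 161 CPM in knockout tumours with inhibitor. Control tumours had 126, 87.9 and 58.7 CPM where MAVS was reconstituted, against 231, 188 and 190 CPM where it was knocked out. The genotypes did not overlap under either treatment, and the lowest knockout library stood above the highest reconstituted one. Averaged over treatments, Hbegf in reconstituted tumours was 41.6% of the knockout level, a log2 difference of -1.27 ± 0.18 (SE of the fit). It was -1.37 ± 0.26 under the inhibitor and -1.16 ± 0.26 in control tumours, the widest difference of the 10 genes under both treatments.

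Areg, encoding amphiregulin, had 10.6, 13.4 and 8.59 CPM in reconstituted tumours with inhibitor, against 20.3, 22.5 and 24.2 CPM in knockout tumours with inhibitor. In control tumours it had 14.6, 12.9 and 8.98 CPM with MAVS, against 26.4, 18.7 and 20.02 CPM without. All 6 reconstituted libraries lay below all 6 knockout libraries, with averaged reconstituted levels at 52.2% of knockout (log2 difference -0.94 ± 0.15). Ereg, which encodes epiregulin, a ligand of both EGFR and ERBB4, had 16.4, 15.4 and 15.6 CPM in reconstituted tumours with inhibitor and 30.7, 24.9 and 26.7 CPM in knockout tumours with inhibitor. The control tumours had 23.5, 19.6 and 17.4 CPM with MAVS and 39.98, 28.3 and 32.03 CPM without. The genotypes did not overlap, and reconstituted tumours were at 58.9% of the knockout level (log2 difference -0.76 ± 0.10).

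Tgfa and Btc, the other ligands, stood closer to equality. Tgfa, transforming growth factor alpha, had 49.4, 41.2 and 44.6 CPM in reconstituted tumours with inhibitor and 50.6, 51.2 and 47.9 CPM in knockout tumours with inhibitor. In controls it had 45.7, 43.6 and 39.95 CPM with MAVS and 54.8, 49.4 and 50.6 CPM without. The genotypes were separate in control tumours and overlapped under the inhibitor, and the averaged log2 difference was -0.20 ± 0.06. Btc, betacellulin, was the scarcest member, at 1.36 to 2.39 and 1.32 to 1.92 CPM in reconstituted tumours with inhibitor and control treatment, against 1.35 to 3.04 and 1.35 to 2.87 CPM in the matching knockout tumours. Its counts were only 80 to 174 per library, its groups overlapped throughout, and its log2 difference of -0.26 ± 0.25 was about as large as its error.

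Egfr encodes the receptor. It had 7.04, 10.6 and 13.7 CPM in reconstituted tumours with inhibitor, against 14.7, 18.2 and 14.04 CPM in knockout tumours with inhibitor. In controls it had 17.7, 14.5 and 15.95 CPM with MAVS and 16.4, 22.7 and 14.5 CPM without. Reconstituted libraries lay below knockout ones under the inhibitor (log2 difference -0.58 ± 0.23) but were mixed with them in controls (-0.16 ± 0.23). Relative to the summed epithelial markers, a scaling chosen after seeing the data, the control difference of Egfr turned to 0.10. Gm39584, a predicted gene whose locus overlaps Egfr, held 8.75 to 17.04 CPM, and the sources used here do not say whether counting used strand, so reads of these genes may not be fully separated. The other overlapping predicted or antisense genes (Egfros at Egfr, Gm19610 at Ereg, Gm41698 at Hbegf and Gm34921 at Dusp6) did not exceed 3.15 CPM.

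Among the Sprouty genes, Spry4 had 8.79, 6.75 and 4.42 CPM in reconstituted tumours with inhibitor, against 16.4, 12.8 and 11.4 CPM in knockout tumours with inhibitor. In controls it had 10.5, 6.95 and 5.33 CPM with MAVS, against 12.9, 17.1 and 16.7 CPM without. Every reconstituted library was below every knockout library, at 49.0% of the knockout level (log2 difference -1.03 ± 0.20), and the difference was nearly equal under the inhibitor (-1.02 ± 0.28) and in controls (-1.03 ± 0.28). Spry2 had 13.8, 11.5 and 11.1 CPM in reconstituted tumours with inhibitor and 18.4, 16.5 and 16.1 CPM in knockout tumours with inhibitor. The controls had 15.1, 11.3 and 12.01 CPM with MAVS and 23.04, 22.8 and 17.96 CPM without. Spry2 likewise did not overlap between genotypes, at 65.5% of the knockout level (log2 difference -0.61 ± 0.10).

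The phosphatases were less uniform. Dusp4, which acts on ERK in the nucleus, had 29.6, 24.3 and 43.0 CPM in reconstituted tumours with inhibitor, against 64.0, 45.6 and 52.8 CPM in knockout tumours with inhibitor. In controls it had 56.1, 36.2 and 33.8 CPM with MAVS and 48.1, 60.4 and 60.3 CPM without. It separated the genotypes under the inhibitor (log2 difference -0.74 ± 0.24) but not in controls (-0.42 ± 0.24), where reconstituted replicate 1 stood above knockout replicate 1. Dusp6, which acts on cytoplasmic ERK, showed the reverse arrangement. It had 153, 126 and 141 CPM in reconstituted tumours with inhibitor and 159, 150 and 155 CPM in knockout tumours with inhibitor, which overlapped (log2 difference -0.14 ± 0.12). In controls it had 115, 109 and 111 CPM with MAVS and 219, 153 and 169 CPM without, with no overlap (-0.69 ± 0.12).

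**Figure D2:**
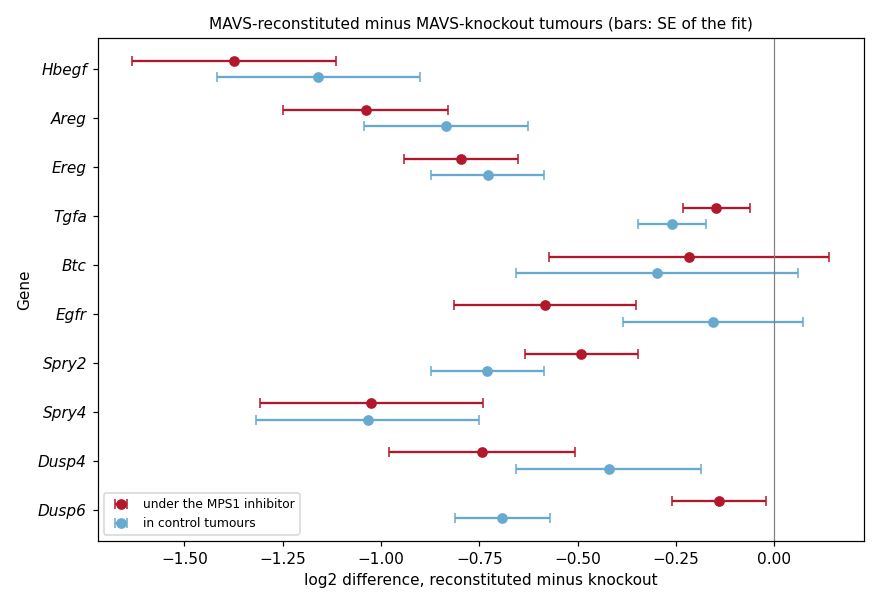
Log2 difference of MAVS-reconstituted minus MAVS-knockout tumours for each gene, under the MPS1 inhibitor (red) and in control tumours (blue), with the SE of the fit as bars. All 20 values lie below 0, from -1.37 for Hbegf to -0.14 for Dusp6, both under the inhibitor.

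All 10 genes had lower fitted levels in reconstituted than in knockout tumours, averaged over treatments and under each treatment separately, apart from Egfr in controls when scaled to epithelial markers. The median log2 difference of the 10 was -0.60 averaged over treatments, -0.66 under the inhibitor and -0.71 in controls, against 0.00028, 0.0096 and 0.0030 over all 17885 genes. In the averaged comparison 5 of 10 (Hbegf, Areg, Ereg, Spry2 and Spry4) had every reconstituted library below every knockout library, a pattern 0.783% of all genes showed. Under each treatment alone this held for 7 of 10, beside 9.77% of all genes under the inhibitor and 15.5% in controls. Since the members were chosen on this contrast, nothing is read from these counts.

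Within a group, 1 library was often the highest for several of the 10 genes at once. Replicate 1 of the reconstituted controls was the highest of its group for 10 of 10 genes, where 34.5% of all genes were highest in that library. Replicate 1 was the highest for 6 of 10 in each of the other groups, where 37.4% to 38.9% of all genes were highest in it. Summed skeletal muscle markers were also highest in replicate 1 of each group. They were at 2051 CPM in reconstituted tumours with inhibitor, 621 in reconstituted controls, 597 in knockout tumours with inhibitor and 295 in knockout controls. The highest of the other libraries was at 318 CPM, and the part of this list was not tested. Without reconstituted control replicate 1 the averaged Hbegf difference was -1.42, the widest value on leaving out any single library, and the narrowest was -1.15. The part of this replicate spread in the MAVS differences was not tested beyond leaving libraries out.

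**Figure D3:**
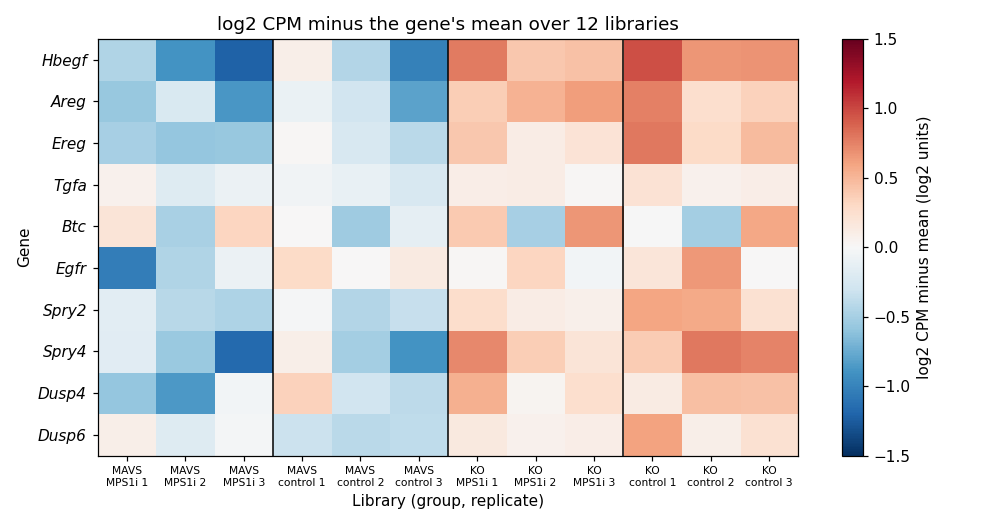
Log2 CPM of each gene (rows) in each of the 12 libraries (columns), minus the mean of that gene over the 12 libraries, with red above and blue below the mean and black lines between the 4 groups. Hbegf, Areg, Ereg, Spry2 and Spry4 are below their mean, or near it in reconstituted control replicate 1, in reconstituted libraries and above it in every knockout library.

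Markers of the cell types in the tumours were read beside these values. The summed level of 8 epithelial markers, which would include the tumour cells, was 6937 to 10131 CPM in reconstituted tumours with inhibitor and 6397 to 6816 CPM in reconstituted controls, against 7363 to 8192 CPM and 7509 to 7924 CPM in the matching knockout tumours. Cldn7 was at 0 in all 12 libraries, and the other 7 epithelial markers were tested. Relative to that sum, Hbegf (-1.24) and Areg (-0.88) kept every reconstituted library below every knockout library. With the treatments pooled, Ereg (-0.69), Spry2 (-0.54) and Spry4 (-0.998) then overlapped. Under each treatment alone, Ereg, Spry2 and Spry4 still had every reconstituted library below every knockout library. The 8 fibroblast and pericyte markers summed to 2147 to 6506 CPM in reconstituted tumours with inhibitor and 6237 to 6507 CPM in reconstituted controls, against 5637 to 10857 CPM and 5699 to 13740 CPM in the matching knockout tumours. All 8 had lower averaged values with MAVS (median log2 difference -0.46), with 0 of 8 passing the edgeR test, and their part in the MAVS differences of the 10 genes was not tested. The 6 skin keratinocyte markers summed to 7.88 to 20.4 CPM in reconstituted tumours with inhibitor and 9.09 to 14.3 CPM in reconstituted controls. They summed to 10.5 to 14.3 CPM in knockout tumours with inhibitor and 10.3 to 13.7 CPM in knockout controls. Krt1 was at 0 in every library.

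The wider pathway was read from 5 lists of 66 further genes, 63 of which were tested. With the averaged MAVS comparison, 4 of the 63 fell and 1 rose (edgeR adjusted p below 0.05), beside 0.470% and 1.09% of all genes. These lists were drawn up with results of these data known, so the counts are not independent evidence of a direction. Among other Sprouty, Spred and dual-specificity phosphatase genes, 1 of 11 fell and 1 rose. Spry1, another Sprouty gene, had 22.9, 20.6 and 19.2 CPM in reconstituted tumours with inhibitor and 24.6, 25.2 and 19.7 CPM in reconstituted controls, against 34.7, 25.3 and 34.9 CPM and 42.1, 36.2 and 45.4 CPM in the matching knockout tumours. All 6 reconstituted libraries were below all 6 knockout libraries (log2 difference -0.71 ± 0.10, adjusted p = 0.00687). Dusp7, a cytoplasmic ERK phosphatase close to DUSP6, went the other way. It averaged 114 ± 16.03 and 112 ± 5.34 CPM in reconstituted tumours with inhibitor and control treatment, against 85.8 ± 0.709 and 81.3 ± 7.99 CPM in the matching knockout tumours (SD, n = 3), and its 6 reconstituted libraries were all above its 6 knockout libraries, as in 1.33% of all genes (0.43 ± 0.07, adjusted p = 0.0152).

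Of 14 ERK-induced genes, 2 fell and none rose, and 13 of 14 had negative values (median -0.32), beside 49.9% of all genes. Under the inhibitor alone, 10 of 14 were negative and 0 passed. In controls alone, 13 of 14 were negative and 1 passed. Epha2, a receptor tyrosine kinase for ephrins, averaged 209 ± 8.82 and 247 ± 43.1 CPM in reconstituted tumours with inhibitor and control treatment, against 324 ± 30.8 and 336 ± 40.7 CPM in knockout tumours (log2 difference -0.54 ± 0.09, adjusted p = 0.0166). Ier3, an immediate early gene, averaged 83.0 ± 17.3 and 44.7 ± 0.900 CPM in reconstituted tumours with inhibitor and control treatment, against 90.7 ± 20.5 and 147 ± 33.9 CPM in knockout tumours (-0.92 ± 0.15, adjusted p = 0.0116). In control tumours alone Ier3 was the gene of these lists that fell (-1.71 ± 0.21, adjusted p = 0.0137), where 0.0224% of all genes did. Of 12 genes of ligand shedding and receptor turnover, 1 fell: Errfi1, an inducible inhibitor of EGFR, averaged 88.3 ± 6.14 and 125 ± 22.5 CPM in reconstituted tumours with inhibitor and control treatment, against 153 ± 14.9 and 164 ± 8.39 CPM in knockout tumours (-0.59 ± 0.09, adjusted p = 0.00733). Errfi1 was also the 1 gene of these lists that fell with MAVS under the inhibitor alone (-0.79 ± 0.12, adjusted p = 0.0268), where 0.129% of all genes did. Without knockout inhibitor replicate 1, the averaged differences of Dusp7 (adjusted p = 0.0530) and Epha2 (adjusted p = 0.0525) no longer passed. Errfi1 under the inhibitor missed the threshold without any 1 of the 3 knockout inhibitor libraries or without reconstituted inhibitor replicate 1 (adjusted p up to 0.158). Ier3 in controls missed it without any 1 of the 3 reconstituted controls or without knockout control replicate 2 (adjusted p up to 0.0873).

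The 19 genes of the RAS-ERK cascade had a median of -0.02 in the averaged MAVS comparison, and 0 of 19 passed the edgeR test. The other ErbB ligands and receptors also had 0 of 7 tested genes passing, with a median of 0.09. Nrg4, the one with the smallest p, was close to the detection limit, at 6 to 16 and 6 to 11 counts in reconstituted tumours with inhibitor and control treatment, against 0 to 10 and 0 to 3 counts in knockout tumours. Erbb4 had no counts in any library, Nrg3 did not pass the filter, and Spry3 was not found under that symbol among the counted genes.

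**Figure D4:**
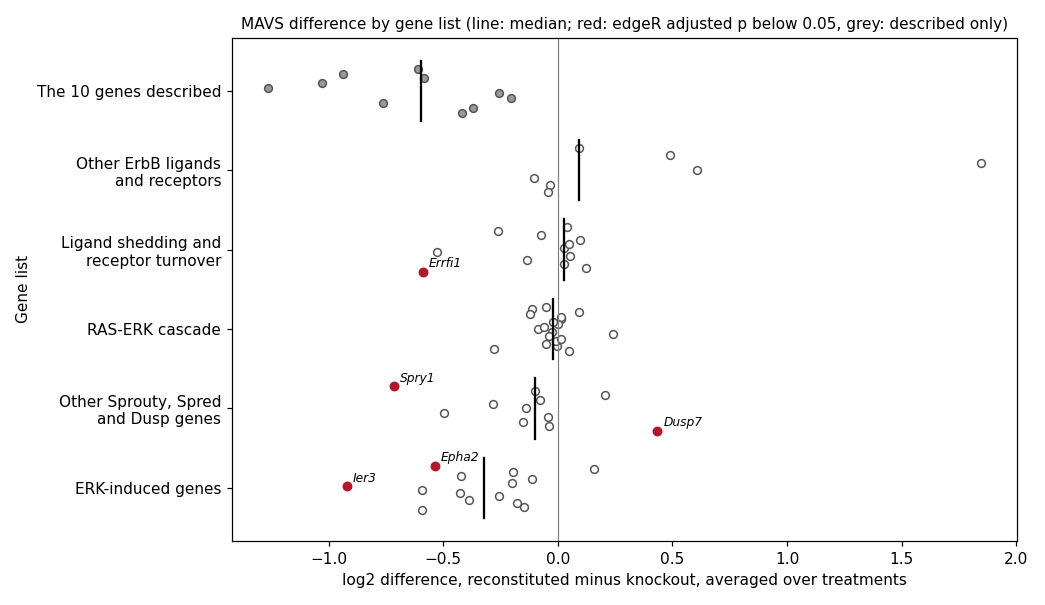
Log2 difference of MAVS-reconstituted minus MAVS-knockout tumours, averaged over treatments, for the 10 genes described (grey, given as a description) and the 63 tested genes of 5 pathway lists (open, or red and named at an edgeR adjusted p below 0.05), with a line at each median. The RAS-ERK cascade lies around 0 with a median of -0.02, and the ERK-induced genes have a median of -0.32.

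Genes outside the set of 10, those of the pathway lists included, were ranked by likeness of library pattern. Among 12021 genes compared by the root-mean-square distance of their standardised log2 CPM over 12 libraries, the nearest to Hbegf were Pvr (0.168), Sinhcaf (0.208), Ankrd1 (0.208), Epha2 (0.226) and Dhh (0.299), where the median gene was at 1.34. Pvr, a cell surface adhesion receptor, averaged 56.0 ± 3.72 and 61.8 ± 6.14 CPM in reconstituted tumours with inhibitor and control treatment, against 74.1 ± 3.70 and 76.1 ± 1.08 CPM in knockout tumours. Its pattern matched that of Hbegf over a much narrower range of levels. The nearest to Areg were Rem2 (0.272), Tgif1 (0.278), Nrarp (0.285), Dhh (0.287) and Ankrd1 (0.301), and the nearest to Spry4 were Phlda1 (0.325), Pvr (0.343), Sinhcaf (0.345), Il23a (0.353) and Dhh (0.381). Within the set, the closest profiles were Hbegf and Ereg (0.285), Hbegf and Spry4 (0.290) and Hbegf and Spry2 (0.364). Egfr and Btc were the furthest apart (1.52). These distances span both genotypes, so the MAVS difference used to choose the set enters them. Closeness is therefore a description, and shared regulation was not tested.

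The MPS1 inhibitor comparisons were not used to choose the genes and were tested. In reconstituted tumours, 7 of 10 genes had lower and 3 higher fitted levels with the inhibitor than in controls. Over all genes, 50.4% were lower. Of the 10, 0 passed the edgeR test, where 0% of all genes did. At an unadjusted p below 0.05 there were 3 of the 10 and 5827 of 17885 genes, and DESeq2 called 1 of the 10 (Egfr) and 3490 genes. Egfr, with the reconstituted values given above, was lower in all 3 inhibitor libraries than in all 3 controls, at 65.0% of the control level (log2 difference -0.62 ± 0.23, 95% interval -1.13 to -0.12, edgeR adjusted p = 0.0978). Gm39584, which overlaps Egfr, was lower in the same libraries, at 8.75, 11.8 and 10.8 CPM against 16.2, 16.0 and 11.99 CPM. Reads of these genes may not be fully separated. Reconstituted inhibitor replicate 3 had the Egfr level nearest to the controls. Without it Egfr fell (-0.86, adjusted p = 0.0176), and 5683 genes passed. DESeq2 on all libraries also called Egfr (-0.63, adjusted p = 0.0411), and over all alternatives its adjusted p ran from 0.0176 to 0.307. The same reconstituted inhibitor libraries had 2147 to 6506 CPM of fibroblast and pericyte markers against 6237 to 6507 CPM in reconstituted controls. They also had 6937 to 10131 CPM of epithelial markers against 6397 to 6816 CPM, 1449 to 1729 CPM of macrophage markers against 1044 to 1335 CPM, and 17.9 to 20.9 CPM of T cell markers against 6.96 to 17.2 CPM. The epithelial, macrophage and T cell sums did not overlap between these groups, and the part of any of the 4 lists in the Egfr difference was not tested.

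Ereg was also lower in all 3 reconstituted inhibitor libraries than in all 3 controls (log2 difference -0.35 ± 0.14, edgeR adjusted p = 0.119), and Dusp6 was higher in all 3 (0.33 ± 0.12, adjusted p = 0.0959). None of these 3 separations passed the edgeR test on all libraries, and 14.8% of all genes had every inhibitor library below every control library and 14.7% had every one above. Hbegf had a difference of -0.44 with a 95% interval of -0.998 to 0.124, and Areg one of -0.16 with an interval of -0.62 to 0.29. Spry4 (-0.19, interval -0.81 to 0.43), Spry2 (-0.08, interval -0.40 to 0.23) and Dusp4 (-0.38, interval -0.90 to 0.14) overlapped between treatments. Tgfa (0.06, interval -0.12 to 0.25) was the most narrowly bounded. Btc (0.25, interval -0.53 to 1.04) was the least. Scaled to the summed epithelial markers, chosen after seeing the data, Dusp6 was at 0.018 and overlapped between these groups. With that scaling Egfr (-0.98) and Ereg (-0.65) stayed separate, and Hbegf (-0.71) and Spry2 (-0.38) became so.

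In knockout tumours, 8 of 10 genes had lower and 2 higher fitted levels with the inhibitor, beside 51.1% of all genes that were lower. Of the 10, 0 passed the edgeR test, where 0% of all genes did. At an unadjusted p below 0.05 there were 1 of the 10 (Spry2) and 305 genes, and DESeq2 called 0 of the 10 and 3 genes. Every adjusted p of the 10 was 1, and no gene of the set separated the treatments, a pattern shown by 4.25% of all genes downward and 4.47% upward. Spry2 had a log2 difference of -0.32 (95% interval -0.64 to -0.01), Ereg one of -0.29 (-0.60 to 0.03) and Hbegf one of -0.22 (-0.78 to 0.33). Dusp6 (-0.22), Spry4 (-0.20), Egfr (-0.19), Dusp4 (-0.06), Tgfa (-0.05), Areg (0.04) and Btc (0.17) had intervals that included 0.

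**Figure D5:**
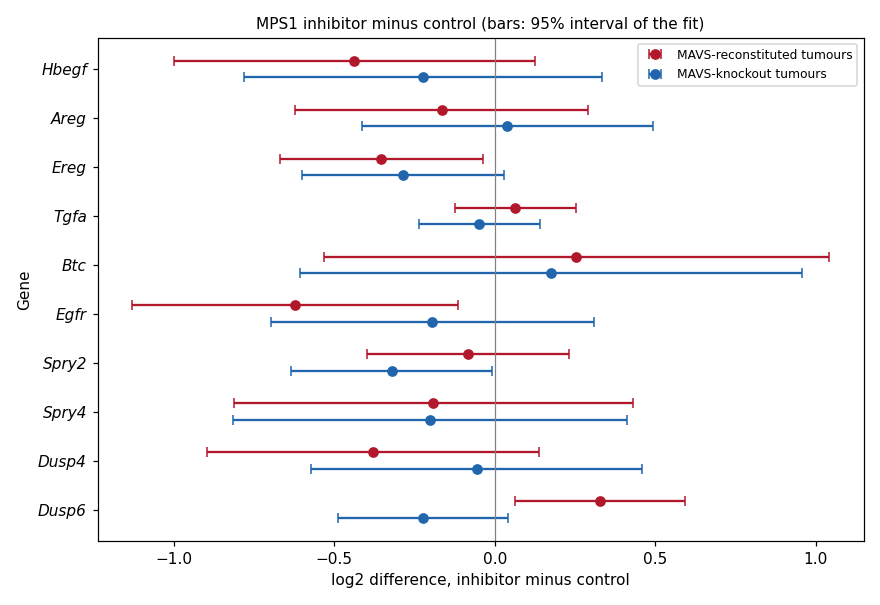
Log2 difference of MPS1 inhibitor minus control for each gene in MAVS-reconstituted tumours (red) and MAVS-knockout tumours (blue), with 95% intervals of the fit. Dusp6 has opposite signs in the genotypes (0.33 and -0.22), and no gene passed the edgeR test in either genotype.

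Whether the inhibitor acted differently with MAVS was tested as an interaction, the inhibitor difference in reconstituted tumours minus that in knockout tumours. Of the 10 genes 0 passed in edgeR, as did 0% of all genes. At an unadjusted p below 0.05 there were 1 of the 10 and 4421 genes, and DESeq2 called 1 of the 10 and 1238 genes, both times Dusp6 from the set. The Dusp6 interaction was 0.55 ± 0.17 (95% interval 0.18 to 0.92), with an edgeR adjusted p of 0.144 and a DESeq2 adjusted p of 0.0453, and the adjusted p ran from 0.0453 to 0.334 over all alternatives. Its size was 0.39 without knockout control replicate 1, the library with 219 CPM, and 0.22 when scaled to the summed epithelial markers. Without scaling, the remaining interactions ran from -0.43 ± 0.32 for Egfr to 0.24 ± 0.20 for Spry2. Scaled to those markers, they ran from -0.81 for Egfr to -0.08 for Spry2, with Dusp4 at -0.63, Areg at -0.52 and Hbegf at -0.49. With both genotypes averaged, 0 of the 10 and 0% of all genes passed in edgeR. At an unadjusted p below 0.05 there were 2 of the 10 (Ereg at -0.32 ± 0.10 and Egfr at -0.41 ± 0.16, both with an adjusted p of 0.522) and 1399 genes, and DESeq2 called 0 of the 10 and 1 gene.

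The pathway lists likewise had 0 of 63 genes passing the edgeR test in the inhibitor comparisons and the interaction, and the smallest adjusted p was 0.0729, in reconstituted tumours. In that comparison Ier3 had a value of 0.89, Errfi1 one of -0.50 and Map2k2, a MEK kinase gene, one of 0.61. Ier3 had the smallest interaction p of these lists (1.59 ± 0.29, edgeR adjusted p = 0.144). Of the 63 interactions, 26 were positive and 37 negative. Dusp2, another dual-specificity phosphatase gene, named here after its values were seen, had 4.74, 4.50 and 3.46 CPM in reconstituted tumours with inhibitor and 1.71, 2.34 and 2.74 CPM in reconstituted controls. It had 2.18, 2.22 and 2.03 CPM in knockout tumours with inhibitor and 3.41, 2.66 and 4.03 CPM in knockout controls, an interaction of 1.55 ± 0.31 (adjusted p = 0.144). The treatments did not overlap in either genotype, and they lay in opposite orders. Araf of the RAS-ERK cascade had the same opposite orders (interaction 0.27 ± 0.09, edgeR adjusted p = 0.148).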

How the data were processed

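The deposited values are raw counts for each gene in each library; the whole numbers and unequal library totals show no normalization by the authors. Trimmomatic, HISAT2, StringTie and the build GRCm38 (mm10) are listed per the submitters' processing notes, without versions or roles. The sources used here do not give whether counting used strand. Genes with low counts were removed with filterByExpr, TMM factors (0.920 to 1.03) were applied, and 1 mean per group was fitted to all 12 libraries in edgeR 4.0.16 (R 4.3.3). Differences were tested with the quasi-likelihood F-test, with Benjamini-Hochberg adjustment over 17885 genes and a threshold of 0.05. DESeq2 1.42.0, RLE size factors, no filter, a replicate block, only the groups compared and leaving out each library were alternatives. A level of 3 counts corresponds to 0.0422 to 0.0593 CPM. Lengths are GENCODE vM21 exon unions, promoters are from RefSeq. Distances use log2 CPM with a prior count of 2.

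The members and the lists were chosen with earlier results of these data known. Named genes are all 10 members, per pathway list the genes that passed a comparison or else the one with the smallest p, and the 5 nearest profiles to Hbegf, Areg and Spry4 (predicted genes and genes under a mean log2 CPM of 1 left out). Intervals and p-values cover only the spread between these libraries.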

Additional observations from a re-analysis of the deposited data

Results flagged for a closer look

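Dusp2, a dual-specificity phosphatase gene of the pathway lists, was flagged because the inhibitor and control libraries lay in opposite orders in the genotypes. It had 4.74, 4.50 and 3.46 CPM in reconstituted tumours with inhibitor, all above the 1.71, 2.34 and 2.74 CPM of reconstituted controls. It had 2.18, 2.22 and 2.03 CPM in knockout tumours with inhibitor, all below the 3.41, 2.66 and 4.03 CPM of knockout controls. The difference between the genotypes was 1.55 ± 0.31 on the log2 scale and did not pass the edgeR interaction test over all genes (adjusted p = 0.144). The flag covered the 10 members and only a part of the pathway genes. Araf, outside that part, had the same opposite orders. Over all genes, 14.7% had every inhibitor library above every control in reconstituted tumours, and 4.25% had every one below in knockout tumours. The share with both was not counted.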

How the results depend on the processing

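With RLE size factors every result kept its direction and its side of the threshold. Without the low-count filter the Spry4 interaction turned to -0.0068. With DESeq2 the genes passing were 3490 for the inhibitor in reconstituted tumours (1 of the 10, Egfr, at -0.63), 3 in knockout tumours, 1238 for the interaction (1 of the 10, Dusp6, at 0.54) and 1 for the averaged inhibitor effect. They were 963 for MAVS averaged (279 with edgeR), 1175 under the inhibitor (116) and 719 in controls (25). Fits of only the groups compared gave 1 gene for the inhibitor in reconstituted tumours, 64 for MAVS under the inhibitor and 10 in controls. Scaled to epithelial markers, chosen after seeing the data, the Egfr MAVS difference in controls turned to 0.0955. The Dusp6 inhibitor difference in reconstituted tumours was then 0.018 and its interaction 0.22, while the Egfr interaction was -0.81.

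The labels tie replicate numbers to no shared animal, batch or day. Deviations of same-numbered libraries correlated at -0.113 to 0.308 (median 0.0880, 9 of 18 pairs over 0.1), against -0.367 to 0.341 for different numbers (median -0.0530, 7 of 36 over 0.1). Of the 12 libraries, 6 correlated best with a library of their own number. The numbers were not taken as pairs because the labels do not tie them, and a block fit was run as an alternative. With replicate number as a block, 43 genes passed for MAVS under the inhibitor and 15 in controls, and no result of the 10 genes changed its call.

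Leaving out each library in turn gave 0 to 5683 genes for the inhibitor in reconstituted tumours (0 to 1 of the 10), 0 to 4005 for the interaction, 0 to 3 for the averaged inhibitor effect, 115 to 331 for MAVS averaged, 0 to 2816 under the inhibitor and 0 to 80 in controls. The highest of the first 3 and of the last 2 came without reconstituted inhibitor replicate 3. The cause was not tested. Signs turned for small differences. In reconstituted tumours with inhibitor these were Tgfa (-0.00732 to 0.124), Spry2 (-0.185 to 0.0512) and Spry4 (-0.44 to 0.11). In knockout tumours they were Areg (-0.0566 to 0.205), Btc (-0.0746 to 0.509), Egfr (-0.320 to 0.0169) and Dusp4 (-0.193 to 0.0533). For the interaction they were Hbegf (-0.457 to 0.0893), Ereg (-0.216 to 0.0479), Btc (-0.26 to 0.33) and Spry4 (-0.24 to 0.31). For the averaged inhibitor effect they were Areg (-0.154 to 0.0199), Tgfa (-0.0279 to 0.0376) and Dusp6 (-0.00133 to 0.134). For MAVS they were Btc under the inhibitor (-0.489 to 0.0313), Btc in controls (-0.525 to 0.0317) and Egfr in controls (-0.284 to 0.0560). Calls of pathway genes that were lost are named beside their values. Averaged MAVS differences of Hbegf (-1.42 to -1.15), Areg (-1.03 to -0.85) and Spry4 (-1.18 to -0.92) kept their sign in each of these fits.

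With 3 libraries per group and counts of 263 to 13241 for members other than Btc, spread between libraries more than counting limits these results. Btc, at 80 to 174 counts, is the least certain. MAVS effects averaged over treatments share libraries with those under each treatment.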
